A study of Mus musculus with 12 samples.

Results

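The data described here compare 2 groups of knockout mice in late pregnancy, those given a treatment labelled Treg and those given vehicle. They are 8 of the 12 libraries of the series, chosen by their sample titles, with 4 libraries of the treated group (KO Treg) and 4 of the vehicle group (KO vehicle). All 8 carry the same genotype, Tnfrsf11a with Foxn1 Cre+, labelled a knock-out. All come from gonadal (peri-uterine) white fat collected at E17.5 of pregnancy, so pregnancy and the knockout are shared by both groups. The other 4 libraries (WT vehicle) carry the same gene without Cre and received vehicle. No wild type library with the Treg treatment was analysed here. Each library has a number of its own in the labels and was counted as 1 mouse. The sources used here do not give strain, age, the number and source of the cells or the day of treatment. Of 20632 genes in the count tables, 12175 passed a filter on low counts and were tested.

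Tnfrsf11a encodes RANK, a receptor that the epithelium of the thymic medulla needs to mature. Foxn1-Cre deletes genes in thymic epithelium and in the epithelium of skin and hair follicles, not in fat. Regulatory T cells are in part selected in the thymic medulla, leave it through the blood and are known to settle in visceral fat, where they restrain inflammation. Fat in late pregnancy is known for a shift from fat storage towards fat release under placental hormones. The comparison therefore asks what fat of a mother with a thymic deletion looks like after regulatory T cells were given, against the same genotype given vehicle.

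Levels are given as CPM, a library's counts scaled to a common total after adjustment by TMM, a method that sets the bulk of genes equal between libraries. A log2 fold change is KO Treg minus KO vehicle and is below 0 where KO Treg is lower. Each was tested with the edgeR quasi-likelihood test and adjusted over all tested genes (Benjamini-Hochberg), and a gene was called at an adjusted p under 0.05. Groups are said not to overlap where all 4 KO Treg values lie on one side of all 4 KO vehicle values.

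The tissue label was met by the adipocyte markers. Adipoq, the gene of the fat cell hormone adiponectin, ranged from 4159.7 to 5457 CPM in KO Treg and from 3881 to 5993 CPM in KO vehicle (a log2 difference of +0.01), and Plin1, which coats the lipid droplet, from 576 to 782 and from 667 to 954 CPM (both chosen after their values were seen). Tnfrsf11a itself was at 6.19 to 8.89 CPM in KO vehicle and 5.83 to 10.3 CPM in KO Treg (log2 fold change +0.03, edgeR adjusted p = 0.986). These reads from whole fat do not check a deletion in the thymus. Foxp3, which encodes the transcription factor that defines regulatory T cells, was at 0 counts in all 4 KO Treg libraries, which allows up to 3 counts in each (0.343 to 0.466 CPM). It had 4 counts in KO vehicle 4 and 0 in the other KO vehicle libraries. Transcripts of Foxp3 were therefore not detectable in the treated fat at this depth.

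Library totals were 6583263 to 8746946 counts in KO Treg and 8350348 to 9617503 counts in KO vehicle. The log2 CPM of 2 KO Treg libraries correlated across genes, which are not independent replicates, at a median of 0.972, that of 2 KO vehicle libraries at 0.970, and that of 1 library of each at 0.968. Some libraries stood apart by genes of other tissues. Summed over 32 placental genes, KO Treg 2 held 356 CPM and KO vehicle 1 132 CPM, against 16.3 to 32.9 CPM in the other 6 knockout libraries. The placental hormone gene Prl3b1 had 218 and 84 counts in these libraries and 0 in the other 6. Over 11 genes of brown fat, KO vehicle 2 and KO vehicle 3 held 2340.5 and 1345 CPM, against 83.8 to 495 CPM in the other 6. The libraries' numbers form 2 series. KO Treg 3 and 4 are in the higher one, and KO Treg 1 and 2 share the lower one with every KO vehicle library. The sources used here do not say whether the series mark a batch.

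Few genes separated the groups firmly. Of 12175 genes 1 was called (0.00821%), Dysf, which was lower in KO Treg. At an unadjusted edgeR p under 0.05 there were 619 genes lower (5.08%) and 449 higher (3.69%), in all 1068. Groups did not overlap for 369 genes that were lower (3.03%) and 245 that were higher (2.01%). Fold changes were balanced around 0, with 6053 genes above and 6122 below, and a median of -0.00. The TMM scaling largely sets this balance, so it is no result about the treatment. An edgeR adjusted p under 0.25 was reached by 36 genes, Dysf included, 27 lower and 9 higher, and all but Dysf shared a value of 0.248. DESeq2 on the same counts called 68 genes, 45 lower and 23 higher. Most values below are therefore descriptions of direction and size with no call.

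**Figure D1:**
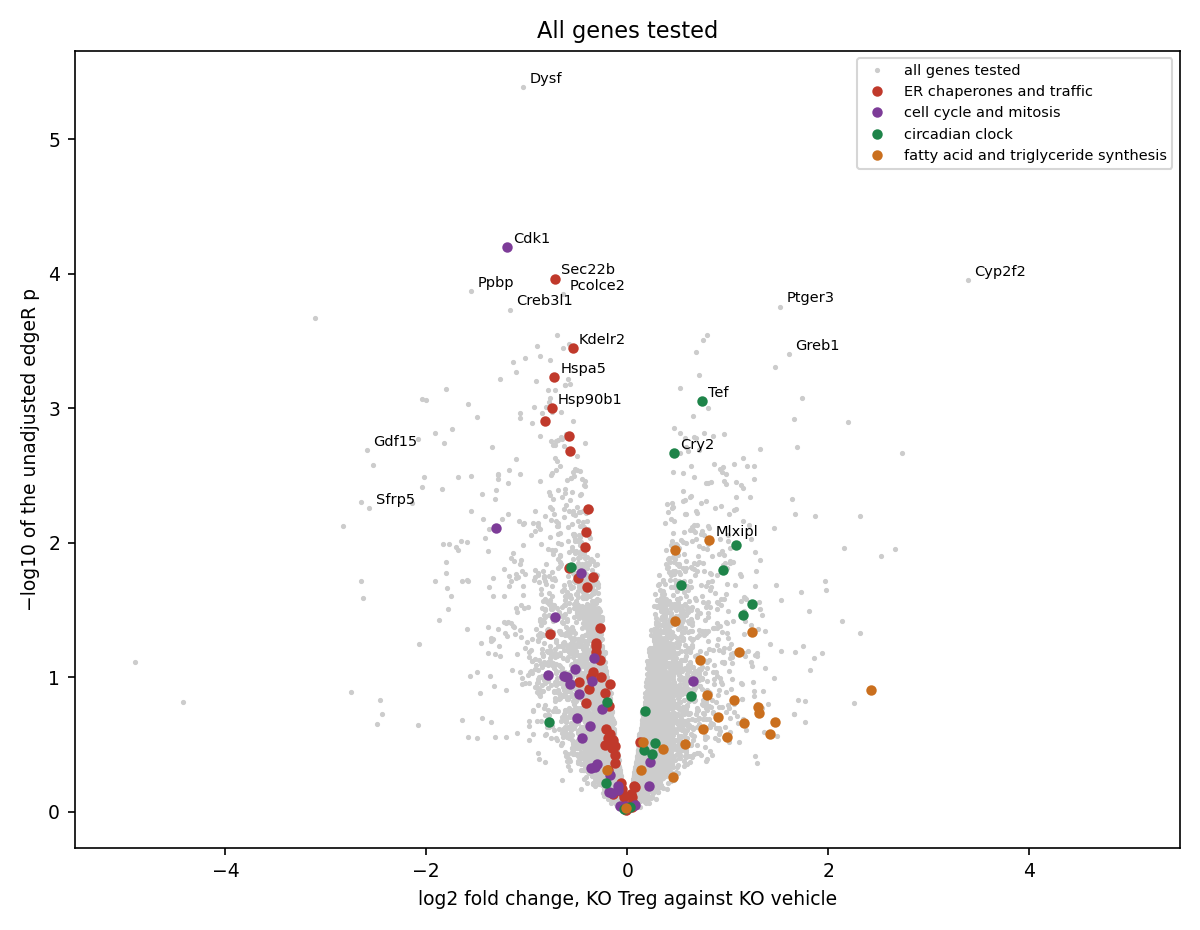
Each point is 1 of the 12175 genes tested, with its log2 fold change in KO Treg against KO vehicle on the x axis and the −log10 of its unadjusted edgeR p on the y axis; colours mark 4 gene lists. Dysf lies highest at a log2 fold change of -1.03, the genes of the endoplasmic reticulum and the cell cycle lie mostly left of 0, and those of fatty acid synthesis and the clock mostly right of 0.

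Dysf encodes dysferlin, a membrane protein that carries vesicles to tears in the plasma membrane of muscle and other cells. It lies on chromosome 6, from 84008590 to 84211060 on the plus strand (mm10). Its level was 51.8, 55.1, 51.1 and 52.2 CPM in KO vehicle 1 to 4 and 17.9, 27.4, 28.7 and 28.8 CPM in KO Treg 1 to 4. The KO vehicle libraries lay close together, KO Treg 1 was lowest, and the highest KO Treg library was well below the lowest KO vehicle library. Dysf fell from 52.6 ± 1.76 to 25.7 ± 5.25 CPM (mean ± SD, n = 4 each; log2 fold change -1.03 ± 0.15 SE, edgeR adjusted p = 0.04997), lower in 4 of 4 libraries. WT vehicle libraries, given here as a description since the same KO vehicle libraries would serve both comparisons, held 24.8 to 33.4 CPM. The call stands at the threshold: leaving out any single library of the 12 ended it, with a log2 fold change of -0.88 without KO Treg 1 and an edgeR adjusted p of up to 0.280. Gm15475 and Gm33024 have exons that overlap exons of Dysf on the other strand, and the sources used here do not give the strand setting of the counting.

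Of 27 genes chosen around dysferlin, caveolae and membrane repair, 21 were tested, 15 below 0 and 6 above, with a median log2 fold change of -0.15 (all genes -0.00). Leaving out KO Treg 1 gave a median of -0.05, KO vehicle 4 one of -0.08 and KO vehicle 3 one of -0.10. Groups did not overlap for 4 of the 21, all lower, against 3.03% of all tested genes, and 7 had an unadjusted p under 0.05, all lower, against 5.08%. Besides Dysf, the others without overlap were annexins, proteins that bind membranes when calcium enters a cell and help to seal them. Anxa2 was at 1624, 1065, 1031 and 961 CPM in KO vehicle 1 to 4 and 512, 927, 919.7 and 884 CPM in KO Treg 1 to 4. Its KO vehicle 1 value and its KO Treg 1 value each stood far from the other 3 of their group, and the gap between the groups was small. Anxa5 was at 203 ± 51.9 against 293 ± 29.2 CPM and Anxa6 at 111 ± 26.9 against 159 ± 24.1 CPM (KO Treg against KO vehicle, mean ± SD, n = 4 each). Their groups nearly touched as well. Anxa5 was at 250 CPM in KO Treg 2 and 254 CPM in KO vehicle 4, and Anxa6 at 133 CPM in KO Treg 2 and 134 CPM in KO vehicle 2. The log2 fold changes of Anxa2, Anxa5 and Anxa6 were -0.53, -0.53 and -0.52 (edgeR adjusted p = 0.465, 0.393 and 0.408). Ehd1, which remodels membranes of endosomes, and Ptrf, the coat protein of caveolae, had log2 fold changes of -0.44 and -0.42 with groups that overlapped. Anxa2, Ehd1 and Ptrf were chosen after their values were seen.

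Genes of protein folding and traffic in the secretory pathway were mostly below 0, with no call among them. Secreted and membrane proteins are folded in the endoplasmic reticulum (ER) by chaperones, and cells raise these chaperones through the unfolded protein response when the load of unfolded protein grows. That response is known to act in part through the ER stress element, a DNA motif near the start of chaperone genes. The motif was searched as CCAAT, 9 bases of any kind, then CCACG, on both strands of the 300 bases around each gene start (250 before, 50 after) in RefSeq sequences of GRCm38.p6. It stood in 7 of the 17 ER chaperone genes that had such a window (41.2%), against 16 of 9304 tested genes (0.172%) and 39 of all 32851 windows (0.119%). The 7 stretches are shown on the strand of the gene, because these chaperone genes hold the motif, which is in capitals (in its reverse form it reads CGTGG, 9 bases, ATTGG).
Hspa5 (chr2:34772005-34772063, plus strand): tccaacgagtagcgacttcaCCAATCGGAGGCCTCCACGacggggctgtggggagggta
Hsp90b1 (chr10:86705513-86705676, minus strand): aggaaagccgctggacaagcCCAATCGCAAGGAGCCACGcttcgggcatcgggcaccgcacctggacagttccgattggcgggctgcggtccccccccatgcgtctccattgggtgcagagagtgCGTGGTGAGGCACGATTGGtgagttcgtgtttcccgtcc
Pdia6 (chr12:17266471-17266529, plus strand): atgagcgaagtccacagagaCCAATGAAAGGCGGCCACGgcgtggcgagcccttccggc
Calr (chr8:84847055-84847113, minus strand): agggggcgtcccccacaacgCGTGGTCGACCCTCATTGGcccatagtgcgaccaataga
Canx (chr11:50325780-50325838, minus strand): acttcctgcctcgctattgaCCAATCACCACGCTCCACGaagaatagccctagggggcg
Creld2 (chr15:88819500-88819558, plus strand): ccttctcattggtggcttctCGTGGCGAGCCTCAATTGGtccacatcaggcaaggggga
Dnajc3 (chr14:118937807-118937865, plus strand): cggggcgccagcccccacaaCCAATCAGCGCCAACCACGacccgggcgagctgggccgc
Hsp90b1 held 2 copies and the other 6 genes 1 each.

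The chaperones and folding enzymes were, as a list of 23 genes that all passed the filter, below 0 in 19 and above 0 in 4, with a median log2 fold change of -0.34. Groups did not overlap for 9 of the 23, and 9 had an unadjusted p under 0.05, in both counts all lower and against 3.03% and 5.08% of all genes. No member was called. As in every list here, the members were measured in the same libraries and are not independent observations. The lists were also chosen with earlier results of these data known. Hspa5 encodes BiP, the main chaperone of the ER and the sensor that holds the unfolded protein response in check. It was at 1659.5, 1998, 1378 and 1559.9 CPM in KO vehicle 1 to 4 and 798, 1045, 1178 and 965 CPM in KO Treg 1 to 4. All 4 KO Treg values lay below all KO vehicle values, with KO vehicle 2 highest and KO Treg 1 lowest (log2 fold change -0.73 ± 0.17 SE, edgeR adjusted p = 0.248). Hsp90b1, which encodes GRP94, the ER form of HSP90, was at 839, 771, 477 and 587 CPM in KO vehicle 1 to 4 and 364, 431, 447 and 347 CPM in KO Treg 1 to 4. The groups did not overlap, though KO vehicle 3 and KO Treg 3 came close (log2 fold change -0.75, edgeR adjusted p = 0.26). Its exons overlap those of Gm25745 and Gm15344 on the same strand, so that its count is uncertain.

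Other members by role followed the same direction. Calr and Canx encode calreticulin and calnexin, lectins that hold glycoproteins until they are folded. Calr was at 608 ± 78.7 against 815 ± 92.8 CPM (log2 fold change -0.42) and Canx at 315 ± 31.3 against 398 ± 8.61 CPM (-0.34), both without overlap. Among the enzymes that form and shuffle disulfide bonds, Pdia4 was at 106 ± 19.6 against 158 ± 22.3 CPM (-0.58) and Pdia6 at 167 ± 7.76 against 247 ± 50.97 CPM (-0.57), also without overlap. Manf, a secreted factor that is retained in the ER by BiP, was at 56.2, 34.1, 35.1 and 31.6 CPM in KO vehicle 1 to 4 and 31.1, 17.01, 18.8 and 22.1 CPM in KO Treg 1 to 4. KO vehicle 1 was far above the other KO vehicle libraries, and KO Treg 1 came within 1 CPM of KO vehicle 4 (log2 fold change -0.82). Creld2, a disulfide isomerase (-0.48), and the co-chaperone Dnajc3 (-0.17) had groups that overlapped. The edgeR adjusted p of these 7 genes ran from 0.265 for Manf to 0.816 for Dnajc3, and Pdia4, Pdia6, Calr, Canx, Creld2 and Dnajc3 were chosen after their values were seen. Of the 9 tested genes with the motif that are not in the list, 5 were below 0 and 4 above, and groups overlapped for all 9.

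The mean log2 CPM of the 23 chaperone genes was 5.86 to 5.89 in KO Treg and 6.09 to 6.36 in KO vehicle, highest in KO vehicle 1. The 4 KO Treg libraries lay within 0.05 of each other. WT vehicle libraries spanned 5.79 to 6.25 and reached into both ranges. The list median was -0.30 without the placental libraries KO vehicle 1 and KO Treg 2, -0.24 without KO vehicle 1 alone and -0.28 within the lower number series. Markers of B and plasma cells, which secrete antibody, lay below 0 in 5 of 6 tested (median -1.09, or -0.35 without KO vehicle 2), and their part in the chaperone values was not tested. Creb3l1, a transcription factor of secretory cells that is cut free from the ER and Golgi membrane, was at 18.8, 15.5, 11.4 and 15.8 CPM in KO vehicle 1 to 4 and 5.21, 7.65, 7.30 and 7.28 CPM in KO Treg 1 to 4. Its groups did not overlap, and KO Treg 1 was lowest (log2 fold change -1.16, edgeR adjusted p = 0.248).

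Downstream of folding, proteins leave the ER in vesicles. Of 34 genes of translocation and secretory traffic, all tested, 27 were below 0 and 7 above, with a median of -0.18, or -0.11 without KO vehicle 1 and KO Treg 2. Groups did not overlap for 6, all lower, against 3.03% of all tested genes. Sec22b, a SNARE that lets vesicles between ER and Golgi fuse, was at 124, 99.8, 108 and 95.8 CPM in KO vehicle 1 to 4 and 72.4, 60.5, 61.2 and 65.7 CPM in KO Treg 1 to 4. The lowest KO vehicle library lay well above the highest KO Treg library (log2 fold change -0.72 ± 0.14 SE, edgeR adjusted p = 0.248). Kdelr2, a receptor that returns escaped chaperones to the ER, was at 78.1, 60.8, 66.6 and 69.3 CPM in KO vehicle 1 to 4 and 46.5, 45.2, 47.4 and 49.7 CPM in KO Treg 1 to 4. The KO Treg libraries were nearly equal, and no value overlapped (log2 fold change -0.54, edgeR adjusted p = 0.248). Sec31a, part of the outer coat of vesicles that leave the ER, was at 88.6 ± 7.20 against 116 ± 15.1 CPM (log2 fold change -0.39). Sensors and signalling genes of ER stress were below 0 in 11 of 15, with a median of -0.20 (-0.12 without KO vehicle 1), 1 without overlap, and list means of 4.42 to 4.52 in KO Treg against 4.56 to 4.86 log2 CPM in KO vehicle. The one without overlap was Ddit3, which encodes CHOP, at 49.1 ± 2.49 against 64.5 ± 8.69 CPM (log2 fold change -0.39). The ER-associated degradation list, which clears misfolded protein, was near 0, with 9 of 16 below 0 and a median of -0.05, which was +0.04 without KO vehicle 1 and KO Treg 2.

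**Figure D2:**
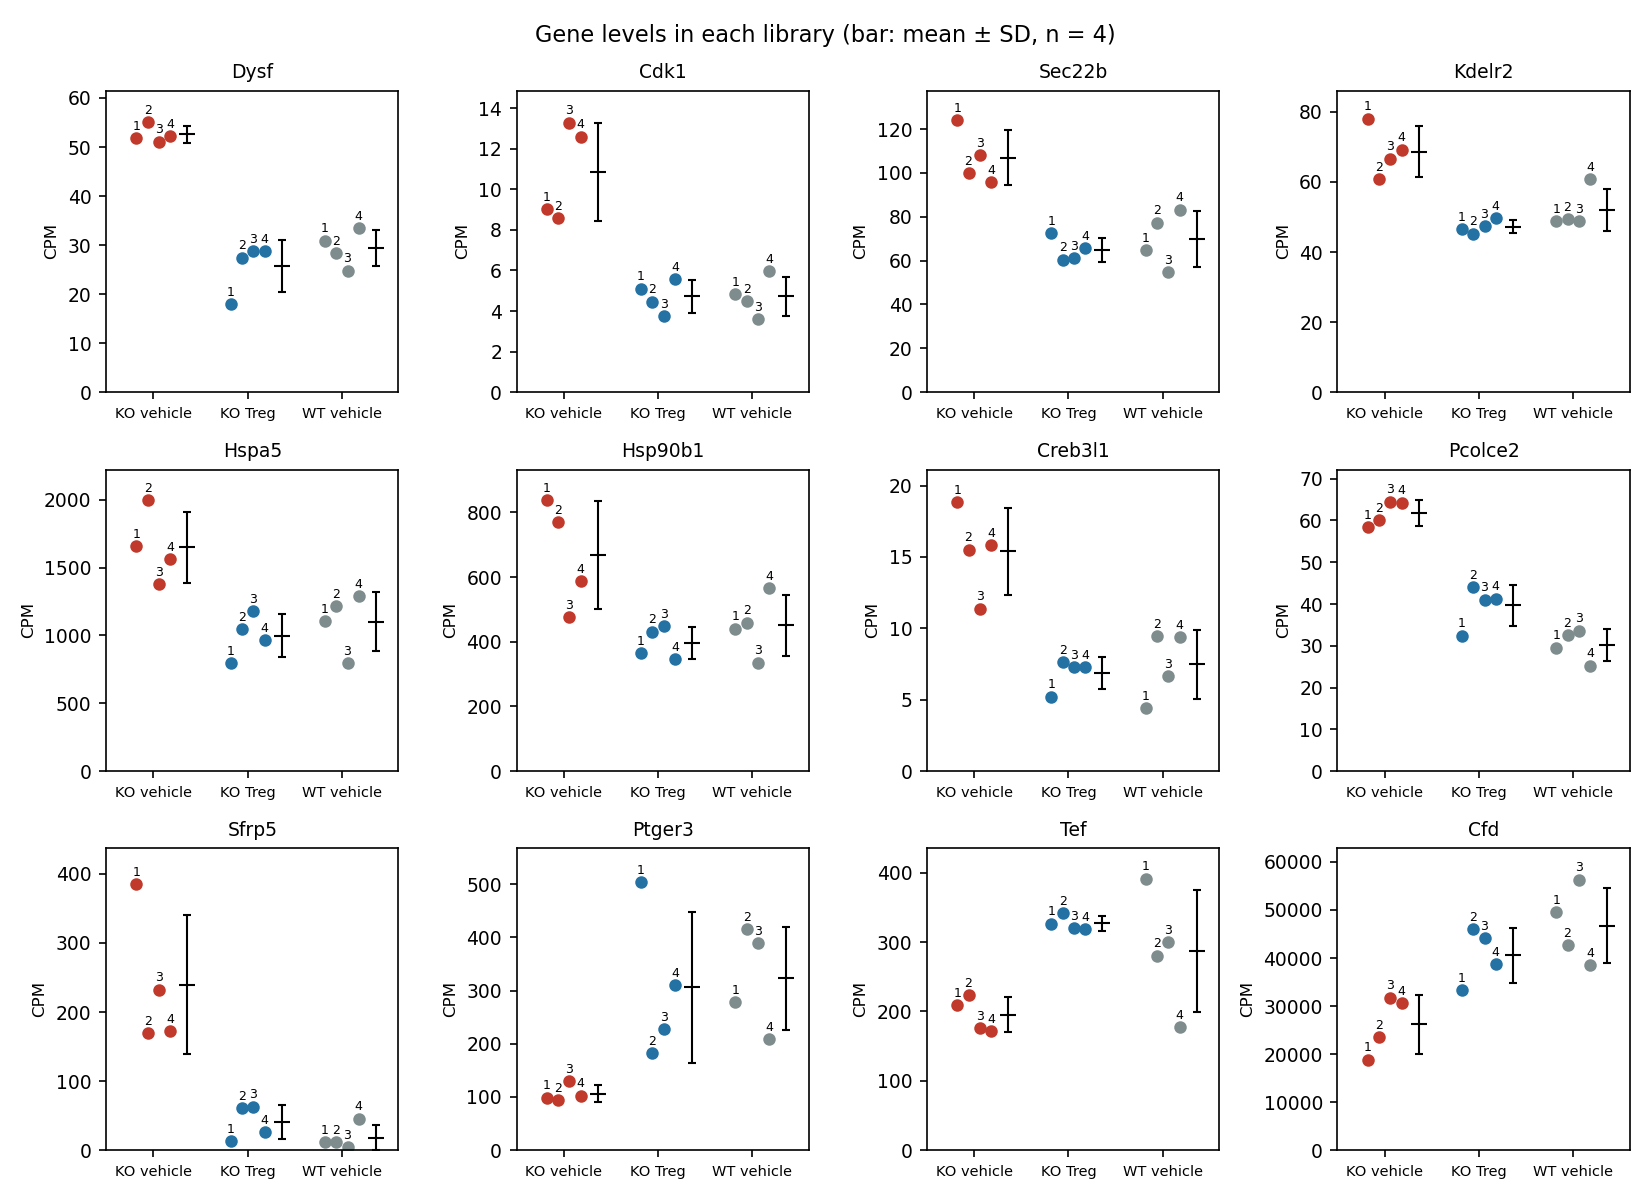
Level in CPM of 12 genes in each library, with the library number above its point and bars for mean ± SD (n = 4) of KO vehicle, KO Treg and WT vehicle. All 12 genes shown are among those without overlap between the groups (3.03% of tested genes lower, 2.01% higher). That no KO Treg value reaches the KO vehicle range therefore follows from the choice of genes. Dysf lies at 17.9 to 28.8 CPM in KO Treg and 51.1 to 55.1 CPM in KO vehicle, and WT vehicle is shown for reference with no test.

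Chaperones of the cytosol, which fold proteins under heat and other stress, were mostly below 0 as well. Of 18 heat shock genes, all tested, 13 were below 0 and 5 above, with a median of -0.30, and groups did not overlap for 3, all lower (all tested genes 3.03%). Hsph1, which resets HSP70 by nucleotide exchange, was at 52.5, 70.6, 55.5 and 54.5 CPM in KO vehicle 1 to 4 and 26.1, 33.9, 35.4 and 29.7 CPM in KO Treg 1 to 4. KO vehicle 2 stood far above the other 3, and the groups did not overlap (log2 fold change -0.90, edgeR adjusted p = 0.248). Hspa8, the constant form of HSP70, was at 473 ± 54.9 against 667 ± 102 CPM and Hsp90aa1, an HSP90 that is induced by stress, at 538 ± 159.6 against 891 ± 233 CPM (log2 fold changes -0.50 and -0.73). Part of this list's median came with KO vehicle 2, the library with the most brown fat transcripts in these groups: without it the median was -0.12, and without KO Treg 1 it was -0.20. A heat shock element, searched on both strands as GAA, 2 bases, TTC, 2 bases, GAA or its reverse, stood in 4 of 13 heat shock genes with a window (30.8%) and in 0.602% of tested genes. Hspd1 and Hspe1, both among the 4, share the same stretch (chr1:55088039-55088096), which was counted for each.

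Immediate early genes, which cells switch on within minutes of a stimulus and which also respond to handling of tissue, were below 0 in 19 of 21 tested (24 in all), with a median of -0.28. Groups did not overlap for 0 of the 21, against 3.03% lower and 2.01% higher of all tested genes. An unadjusted edgeR p under 0.05 was reached by 4, all lower, against 5.08% of all tested genes. Fos was at 8.11, 8.48, 2.36 and 4.98 CPM in KO vehicle 1 to 4 and 2.13, 3.31, 3.26 and 1.82 CPM in KO Treg 1 to 4. KO vehicle 3 lay among the KO Treg values and the other KO vehicle libraries above them (log2 fold change -1.19, edgeR adjusted p = 0.356). Jun, its partner in the AP-1 complex, had a log2 fold change of -0.45, with an overlap likewise at KO vehicle 3.

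Cell cycle genes were at low levels. Of 38 genes 32 were tested, 28 below 0 and 4 above, with a median of -0.33, and groups did not overlap for 3, all lower (all tested genes 3.03%). Cdk1, the kinase that drives entry into mitosis, was at 9.02, 8.58, 13.3 and 12.6 CPM in KO vehicle 1 to 4 and 5.10, 4.45, 3.73 and 5.58 CPM in KO Treg 1 to 4. KO vehicle 3 and 4 were highest, and the lowest KO vehicle library lay above the highest KO Treg library (log2 fold change -1.20 ± 0.22 SE, edgeR adjusted p = 0.248). Prc1, which bundles the central spindle, was at 1.94, 1.45, 1.58 and 1.02 CPM in KO vehicle 1 to 4 and 0.593, 0.914, 0.622 and 0.243 CPM in KO Treg 1 to 4, levels of 2 to 17 counts a library. Mcm3, a subunit of the helicase that unwinds DNA for replication, was at 13.6 ± 1.76 against 18.6 ± 2.19 CPM (log2 fold changes -1.30 and -0.46, edgeR adjusted p = 0.38 and 0.461). The mean log2 CPM of the list was 1.72 to 1.90 in KO Treg, 1.99 to 2.30 in KO vehicle and 1.77 to 1.95 in WT vehicle. In bulk tissue, fewer dividing cells and less RNA per cell cannot be told apart, and the same holds for every cell type below. The list median was -0.20 without KO vehicle 1 and -0.38 within the lower number series.

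Genes of mitosis are known to share a short promoter element, the CHR, searched here as TTTGAA on both strands. It stood in 15 of 28 cell cycle genes with a window (53.6%), against 13.9% of all tested genes. Over all 1291 tested genes with it, 647 were below 0 and 644 above, and the median was -0.00. The promoter of Cdk1, the cell cycle gene of smallest p, held 2 copies, in capitals.
Cdk1 (chr10:69352902-69353003, minus strand): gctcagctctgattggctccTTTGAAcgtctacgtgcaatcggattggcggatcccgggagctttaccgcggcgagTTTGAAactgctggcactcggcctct

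**Figure D3:**
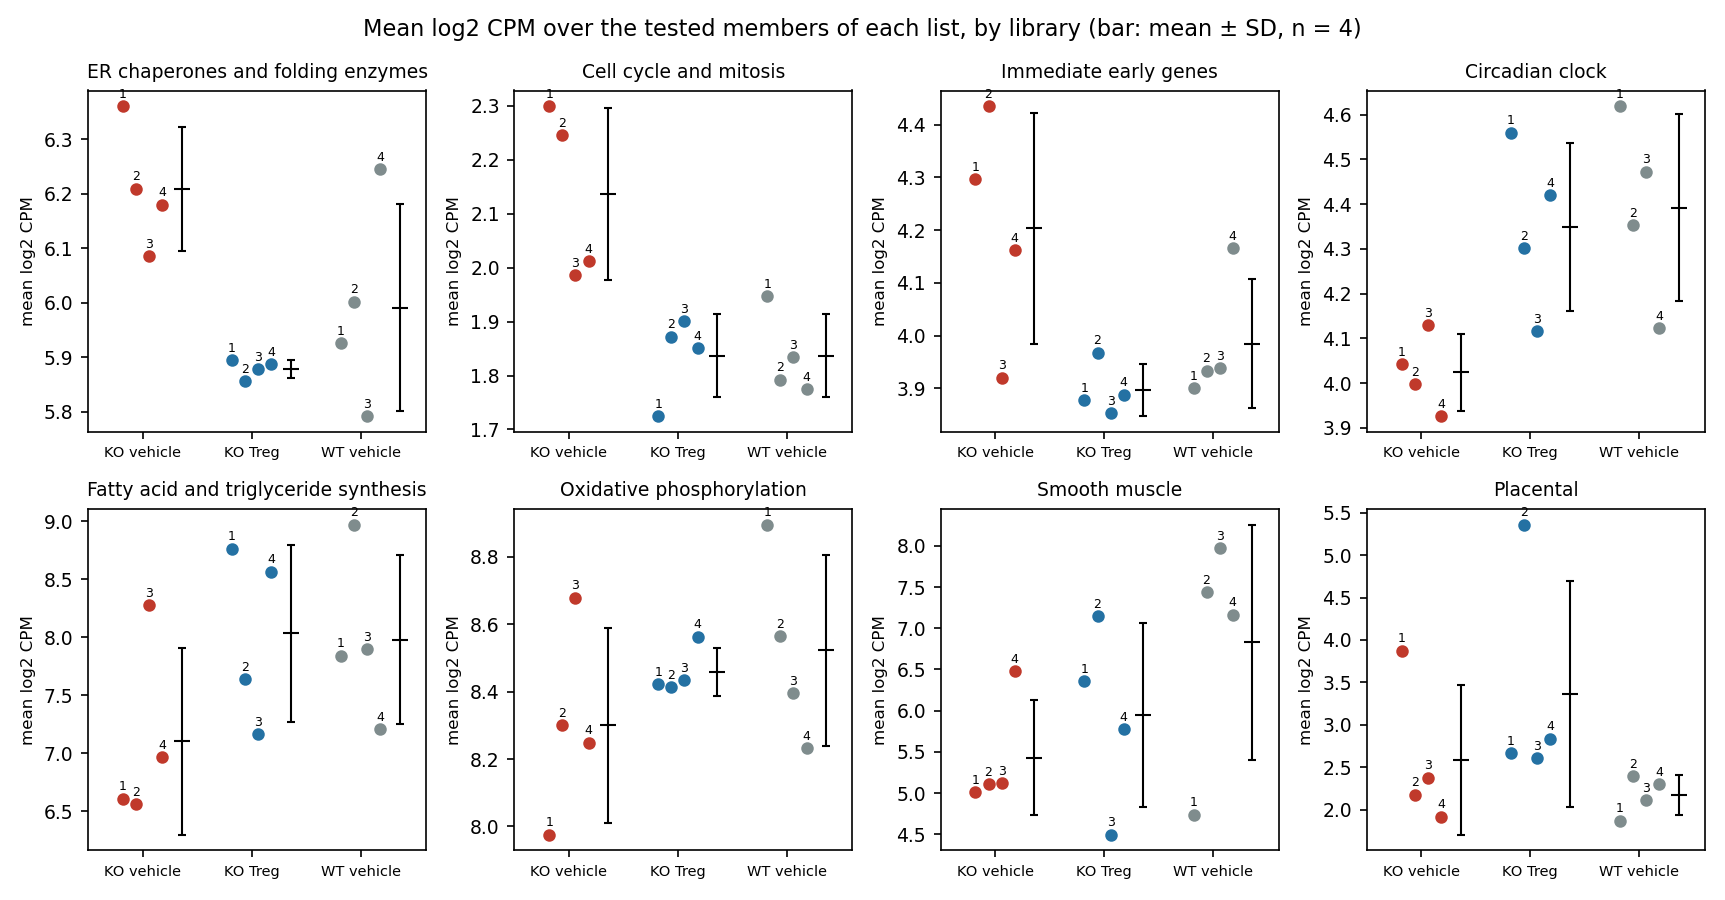
Mean log2 CPM over the tested members of 8 gene lists in each library (number above the point), with bars for mean ± SD (n = 4); the y axes do not start at 0. For ER chaperones and cell cycle no KO Treg mean reaches a KO vehicle mean, for the other 6 lists the groups overlap, and KO vehicle 1 and KO Treg 2 stand apart in the placental panel.

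Lipid synthesis was higher in KO Treg by its median but varied widely between libraries. Of 24 genes that build fatty acids and triglycerides, 22 were above 0 and 2 below, with a median of +0.80, yet groups did not overlap for 1 of the 24 (all tested genes 2.01%). Fasn, fatty acid synthase, was at 558, 778, 12524 and 2025 CPM in KO vehicle 1 to 4 and 19218, 6694, 2341 and 15694 CPM in KO Treg 1 to 4 (chosen after its values were seen). KO vehicle 3 lay above KO Treg 2 and 3, so the groups overlapped (log2 fold change +1.47 ± 1.11 SE, edgeR adjusted p = 0.785). Without KO vehicle 3 the value of Fasn was +3.31 and the list median +1.27. Mlxipl, which encodes ChREBP, a transcription factor that turns on lipid synthesis when carbohydrate is plentiful, was the member without overlap. It was at 104, 139.9, 181 and 128 CPM in KO vehicle 1 to 4 and 354, 194, 201 and 224 CPM in KO Treg 1 to 4 (log2 fold change +0.81, edgeR adjusted p = 0.409), with KO Treg 1 far the highest. Fads1, a desaturase of long fatty acids, and Lpin1, a phosphatase in triglyceride assembly, were at 87.2 ± 6.77 against 62.7 ± 14.6 and 459.8 ± 85.4 against 330.4 ± 47.8 CPM. Cholesterol synthesis genes were above 0 in 18 of 23 tested, with a median of +0.26 and groups that overlapped for all 23. That median was +0.12 without KO vehicle 2, +0.15 without KO Treg 1 and +0.45 without KO vehicle 3.

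Genes of lipolysis and the lipid droplet, a list that mixes genes of fat release and of fat storage, were mostly below 0. Of 18 lipolysis and lipid droplet genes 13 were below 0, with a median of -0.17, which became -0.08 if KO Treg 1 was left out, -0.30 if KO Treg 3 was, and -0.07 without KO vehicle 2, KO vehicle 3 and WT vehicle 1. Pnpla2, which encodes ATGL, the first lipase of triglyceride breakdown, was at 3176, 2895, 3835 and 2694 CPM in KO vehicle 1 to 4 and 2286, 2565, 2574 and 2569.8 CPM in KO Treg 1 to 4. KO Treg 2, 3 and 4 were almost equal and close under KO vehicle 4, and KO Treg 1 was lower still (log2 fold change -0.33, edgeR adjusted p = 0.51). Aqp7, the channel through which glycerol leaves the fat cell, was at 31.3 ± 5.47 against 44.4 ± 4.46 CPM without overlap (log2 fold change -0.51). Pdk4, a kinase that inhibits pyruvate dehydrogenase and is known to be raised by fasting, was at 28.3, 27.8, 14.6 and 10.8 CPM in KO vehicle 1 to 4 and 5.45, 9.82, 6.84 and 4.86 CPM in KO Treg 1 to 4. No KO Treg value reached a KO vehicle value, though KO Treg 2 came close to KO vehicle 4 (log2 fold change -1.59, edgeR adjusted p = 0.411). Fatty acid oxidation genes were below 0 in 20 of 25 with a median of -0.13. That median was +0.07 without KO vehicle 2, KO vehicle 3 and WT vehicle 1, but -0.05 without KO vehicle 2 alone and -0.04 without KO vehicle 3 alone. The first choice kept KO Treg 2, the KO Treg library with the most brown fat transcripts. The part of brown fat transcripts in this sign was therefore not tested. If KO vehicle 4 was left out, the median was -0.23.

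Hormones and size markers of the fat cell lay on both sides of 0. Of 15 such genes 8 were below 0 and 7 above, 3 lower and 2 higher without overlap (all tested genes 3.03% and 2.01%). The list median was -0.49, or -0.25 within the lower number series and -0.60 without KO Treg 2. List means were 7.06 to 7.87 log2 CPM in KO Treg and 7.91 to 8.20 in KO vehicle, close but without overlap. Sfrp5, a secreted Wnt inhibitor that rises in enlarging fat cells, was at 385, 169, 232 and 172 CPM in KO vehicle 1 to 4 and 12.8, 60.4, 62.8 and 26.3 CPM in KO Treg 1 to 4. The lowest KO vehicle value was far above the highest KO Treg value (log2 fold change -2.57 ± 0.72 SE, edgeR adjusted p = 0.356). Mest, another marker of fat cell enlargement, was at 778, 369.7, 209 and 161 CPM in KO vehicle 1 to 4 and 18.3, 89.4, 32.9 and 100.04 CPM in KO Treg 1 to 4 (log2 fold change -2.65, edgeR adjusted p = 0.465; chosen after its values were seen), highest in KO vehicle 1. WT vehicle libraries held 4.13 to 45.7 CPM of Sfrp5 and 6.59 to 88.3 CPM of Mest. Lep, the leptin gene, was at 313, 134, 308 and 293 CPM in KO vehicle 1 to 4 and 139, 109.96, 123 and 219 CPM in KO Treg 1 to 4, and KO vehicle 2 lay among the KO Treg values (log2 fold change -0.83, edgeR adjusted p = 0.673).

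Cfd, which encodes adipsin, a complement protease and one of the most abundant transcripts of fat, was at 18858, 23532, 31715 and 30606 CPM in KO vehicle 1 to 4 and 33283, 46053, 44185 and 38788 CPM in KO Treg 1 to 4. All 4 KO Treg values lay above all KO vehicle values, by a narrow margin between KO Treg 1 and KO vehicle 3 (log2 fold change +0.63, edgeR adjusted p = 0.306). Nampt, which makes a precursor of NAD, was higher without overlap as well (126 ± 49.7 against 74.1 ± 3.45 CPM, log2 fold change +0.77; chosen after its values were seen), mainly in KO Treg 1 and 4. Rbp7, a carrier of retinol found in endothelium and fat cells, was at 567, 422, 317 and 236 CPM in KO vehicle 1 to 4 and 42.9, 130.3, 129 and 106 CPM in KO Treg 1 to 4. The lowest KO vehicle value was well above the highest KO Treg value (log2 fold change -1.92 ± 0.45 SE, edgeR adjusted p = 0.27).

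Mitochondrial and ribosomal genes had small values, mostly above 0. Of 55 oxidative phosphorylation genes 50 were above 0, with a median of +0.14. Groups did not overlap for 0 of them, against 2.01% higher and 3.03% lower of all tested genes. The list means of KO Treg, 8.41 to 8.56 log2 CPM, lay inside the KO vehicle range of 7.98 to 8.68. KO vehicle 1 was lowest, and the median was +0.05 without KO vehicle 1 and KO Treg 2, and +0.38 without KO vehicle 2, KO vehicle 3 and WT vehicle 1. Atp5c1, the rotor subunit of ATP synthase, was at 475 ± 42.9 against 359 ± 45.4 CPM (log2 fold change +0.40). Cytosolic ribosomal protein genes were above 0 in 41 of 43 tested with a median of +0.09, which was +0.00 with the number series as a covariate. Members of these lists varied together between libraries, so many genes of 1 sign are not independent observations.

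Clock genes had values on both sides of 0. The clock is a loop in which Clock and Arntl switch on their own repressors, and the proline-rich factors Dbp and Tef carry the rhythm to output genes. Of 18 tested genes 13 were above 0, with a median of +0.26, or +0.43 without KO Treg 3 and +0.41 without KO vehicle 1 and KO Treg 2. Groups did not overlap for 4 that were higher and 1 that was lower, against 2.01% and 3.03% of all tested genes. Tef was at 209, 223, 176 and 172 CPM in KO vehicle 1 to 4 and 327, 342, 320.3 and 319 CPM in KO Treg 1 to 4. The KO Treg libraries were nearly equal, and all were above the KO vehicle libraries (log2 fold change +0.75 ± 0.18 SE, edgeR adjusted p = 0.26). Exons of Tef overlap Gm17597 on the opposite strand. The repressors split, Cry2 at 57.6 ± 5.18 against 41.9 ± 5.47 CPM (log2 fold change +0.46) and Cry1 at 7.84 ± 1.12 against 11.6 ± 1.48 CPM (-0.56; chosen after its values were seen), both without overlap. Dbp, Per3 and Nr1d2 had log2 fold changes of +1.25, +0.95 and +0.53, while the activators Arntl, Clock and Npas2 were at -0.21, -0.20 and -0.78, all chosen after their values were seen. The value of Arntl was +0.13 without KO vehicle 4. The sources used here do not give the hour of collection, and its part in these values was not tested.

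Matrix genes were mostly below 0, at 22 of 36 with a median of -0.20, and groups did not overlap for 3 that were lower and 2 that were higher, against 3.03% and 2.01% of all tested genes. Pcolce2, which speeds the trimming of procollagen, was at 58.3, 60.1, 64.5 and 64.3 CPM in KO vehicle 1 to 4 and 32.5, 43.96, 41.03 and 41.3 CPM in KO Treg 1 to 4. Both groups were tight, and KO Treg 1 was lowest (log2 fold change -0.64 ± 0.13 SE, edgeR adjusted p = 0.248). Lox, the enzyme that cross-links collagen, was at 40.3, 35.9, 35.5 and 24.4 CPM in KO vehicle 1 to 4 and 19.3, 19.98, 16.01 and 22.2 CPM in KO Treg 1 to 4, with KO vehicle 4 just above KO Treg 4 (log2 fold change -0.81, edgeR adjusted p = 0.26). Htra3, a secreted protease, was at 259 ± 55.5 against 447 ± 127 CPM with an overlap of 1 pair of libraries (log2 fold change -0.79). Lum, the gene of the collagen-binding proteoglycan lumican, was 1 of the 2 higher without overlap, at 39.4, 30.9, 32.5 and 38.1 CPM in KO vehicle 1 to 4 and 100.5, 56.8, 46.9 and 67.6 CPM in KO Treg 1 to 4 (log2 fold change +0.95, edgeR adjusted p = 0.306; chosen after its values were seen). The list median was -0.08 without KO vehicle 1, -0.12 without KO Treg 1 and -0.31 without KO vehicle 2, KO vehicle 3 and WT vehicle 1.

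Lymphocyte transcripts were scarce, with summed T cell markers of 23.6 to 48.3 CPM in KO vehicle. Summed macrophage markers reached 8252 to 10578 CPM there, a sum that rests largely on the most abundant members of the list. The list mean was only 4.97 to 5.31 log2 CPM in KO vehicle, and the member Cd68 held 31.5 to 47.6 CPM. Whether the abundant members come from macrophages was not tested, so the sums do not compare the abundance of these cells. Of 26 cytokine and chemokine genes 19 were tested, 14 below 0 and 5 above, with a median of -0.44, and groups did not overlap for 4 that were lower and 1 that was higher, against 3.03% and 2.01% of all tested genes. Ccl8, which attracts monocytes and T cells, was at 24.7, 20.8, 14.1 and 39.9 CPM in KO vehicle 1 to 4 and 11.97, 10.8, 11.7 and 12.9 CPM in KO Treg 1 to 4. The KO Treg libraries were nearly equal, and KO vehicle 4 was far the highest (log2 fold change -1.07, edgeR adjusted p = 0.265). Here WT vehicle, at 25.8 to 44.4 CPM, lay with KO vehicle. Ppbp, a chemokine of platelets, was at 5.37, 4.86, 3.60 and 5.48 CPM in KO vehicle 1 to 4 and 1.78, 1.94, 2.02 and 0.850 CPM in KO Treg 1 to 4 (log2 fold change -1.55, edgeR adjusted p = 0.248), and 3 of 5 platelet genes tested were below 0. The list means of cytokines overlapped, at 3.18 to 3.77 log2 CPM in KO Treg and 3.60 to 4.05 in KO vehicle. With genes of at least 5 CPM alone the median was -0.17.

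Macrophage genes were below 0 in 16 of 24 with a median of -0.13, and 3 were lower without overlap (all tested genes 3.03%). Leaving out KO Treg 1 gave a median of -0.03, KO vehicle 4 one of -0.05, KO Treg 2 one of -0.06, KO vehicle 1 one of -0.07 and KO vehicle 3 one of -0.22, while both placental libraries together gave -0.03. Itgax, which encodes CD11c, a marker of macrophages and dendritic cells that gather in stressed fat, was at 4.45, 5.69, 3.83 and 3.76 CPM in KO vehicle 1 to 4 and 0.830, 3.31, 1.86 and 1.21 CPM in KO Treg 1 to 4 (log2 fold change -1.29, edgeR adjusted p = 0.306). KO Treg 2 came within 1 CPM of the lowest KO vehicle library. Cd68, a lysosomal marker of macrophages, had a log2 fold change of -0.59 with groups that overlapped, while the macrophage receptor gene Csf1r was at -0.07 (chosen after its values were seen). Genes of the interferon response were split, 17 of 30 below 0, and Irf7, a driver of that response, was higher without overlap at 15.6 ± 1.24 against 10.1 ± 1.47 CPM (log2 fold change +0.63, edgeR adjusted p = 0.339). All 8 tested MHC class II presentation genes were below 0, with a median of -0.23 (-0.38 without KO vehicle 1 and -0.15 without KO vehicle 2), though KO vehicle 1 held the lowest list mean of the 8 knockout libraries (5.12 log2 CPM).

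Of 15 regulatory T cell markers 8 were tested, 4 above and 4 below 0, with a median of -0.03 that ran from -0.17 without KO vehicle 2 to +0.12 without KO vehicle 1. Foxp3, Ctla4, Ccr8, Tigit and Areg had no more than 4 counts in any knockout library. Il2ra, the high affinity receptor chain for interleukin 2 that regulatory T cells and other activated cells carry, was at 2.17, 1.55, 0.901 and 2.23 CPM in KO vehicle 1 to 4 and 6.16, 2.85, 2.80 and 3.88 CPM in KO Treg 1 to 4. Its groups did not overlap (log2 fold change +1.19, edgeR adjusted p = 0.306). Icos, a costimulatory receptor, went the other way without overlap, at 1.37, 2.998, 1.80 and 4.16 CPM in KO vehicle 1 to 4 and 0.474, 1.03, 1.09 and 1.21 CPM in KO Treg 1 to 4 (log2 fold change -1.44, edgeR adjusted p = 0.334). Lrrc32 was lower without overlap as well, at 20.4 ± 2.40 in KO Treg against 25.8 ± 3.07 CPM in KO vehicle (log2 fold change -0.34, edgeR adjusted p = 0.521). Summed over the 15 markers the libraries held 38.1 to 43.7 CPM in KO Treg and 39.4 to 54.02 CPM in KO vehicle. A large part of these sums was Lrrc32 alone, at 17.1 to 22.8 CPM in KO Treg and 23.1 to 28.8 CPM in KO vehicle. T cell genes were below 0 in 9 of 10 tested (of 19 in the files), with a median of -0.80 (-0.53 without KO vehicle 4 and -1.34 without KO vehicle 1 and KO Treg 2), and their sum was 22.9 to 31.1 CPM in KO Treg and 23.6 to 48.3 CPM in KO vehicle. KO vehicle 1 lay inside the KO Treg range. At these levels a member is worth few counts, and the median turned to +0.16 when only genes of at least 5 CPM were kept. Cd247 (log2 fold change +0.67) was the only tested member above 0, so that positive median rests on very few genes.

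Among genes of smallest p that were higher, none was called by edgeR. Ptger3, the prostaglandin E2 receptor EP3, which restrains lipolysis in fat cells, was at 98.7, 94.6, 129.7 and 103 CPM in KO vehicle 1 to 4 and 505, 182, 228 and 310.1 CPM in KO Treg 1 to 4. All 4 KO Treg values lay above the KO vehicle values, with KO Treg 1 far the highest (log2 fold change +1.52 ± 0.30 SE, edgeR adjusted p = 0.248). Greb1, which is induced by estrogen, was at 3.42, 2.38, 1.35 and 1.42 CPM in KO vehicle 1 to 4 and 9.01, 7.76, 4.51 and 4.73 CPM in KO Treg 1 to 4 (log2 fold change +1.61, edgeR adjusted p = 0.248), again without overlap. Exons of Greb1 overlap Gm48140 on the opposite strand. Nrgn, a calmodulin-binding protein, was at 21.2, 23.6, 27.8 and 25.9 CPM in KO vehicle 1 to 4 and 50.7, 36.7, 42.3 and 41.3 CPM in KO Treg 1 to 4 and the ferritin receptor gene Scara5 at 15.9, 18.1, 16.9 and 21.1 CPM in KO vehicle 1 to 4 and 32.00, 34.03, 25.2 and 30.1 CPM in KO Treg 1 to 4. Their log2 fold changes were +0.79 and +0.75, with no overlap and a spread within each group of under 6 CPM SD.

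Further genes had higher values in KO Treg, also with no call. Cd34, a surface marker of adipose progenitors and endothelium, was at 80.9, 84.8, 79.4 and 83.7 CPM in KO vehicle 1 to 4 and 116, 116, 122 and 100.3 CPM in KO Treg 1 to 4 (log2 fold change +0.46, edgeR adjusted p = 0.27), although the 14 progenitor markers as a list were split evenly, with 7 on each side of 0. C1qtnf9, a secreted relative of adiponectin, was at 51.2 ± 2.62 against 35.5 ± 4.21 CPM (log2 fold change +0.53). Gpx3, a secreted glutathione peroxidase, was at 1025, 641, 1116 and 1263 CPM in KO vehicle 1 to 4 and 1819, 1689.6, 1688 and 1609.7 CPM in KO Treg 1 to 4, nearly equal in the 4 KO Treg libraries. Sod3, the superoxide dismutase of the extracellular space, lay on the other side at 402, 252, 374 and 296 CPM in KO vehicle 1 to 4 and 151, 233, 199 and 197 CPM in KO Treg 1 to 4. The log2 fold changes were +0.75 and -0.76 (edgeR adjusted p = 0.421 and 0.248). Among the largest differences upward, those of Cspg5, a proteoglycan (+2.73), Trhde, which degrades a releasing hormone (+1.69), Isyna1, the enzyme of inositol synthesis (+1.64), and Gsta3, a glutathione transferase (+1.67), each were highest in KO Treg 1 and KO Treg 4 and lowest, within the group, in KO Treg 2. Fasn had the same order of libraries within KO Treg except that KO Treg 3 was lowest.

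The next genes had lower values in KO Treg, and none was called by edgeR. Gdf15, a hormone of cell stress that reduces appetite, was at 13.8, 27.5, 4.95 and 4.87 CPM in KO vehicle 1 to 4 and 1.90, 2.97, 2.95 and 0.728 CPM in KO Treg 1 to 4. KO vehicle 2 was highest and KO vehicle 3 and 4 lay near the KO Treg values, so the size of the difference depends on which library is taken (log2 fold change -2.59 ± 0.66 SE, edgeR adjusted p = 0.277). Odc1, the first enzyme of polyamine synthesis, was at 114, 171, 119 and 115 CPM in KO vehicle 1 to 4 and 52.1, 83.7, 84.4 and 64.8 CPM in KO Treg 1 to 4, with KO vehicle 2 apart from the other 3 (log2 fold change -0.86). Upp1, which salvages uridine, Tpm4, a tropomyosin of the cytoskeleton, and Slc7a5, a carrier of large amino acids, were lower without overlap at log2 fold changes of -1.02, -0.70 and -0.70 (edgeR adjusted p = 0.248, 0.248 and 0.303). Pxmp4, a peroxisomal membrane protein, and Hs6st1, which sulfates heparan chains, were at -0.58 and -0.64, also without overlap.

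**Figure D4:**
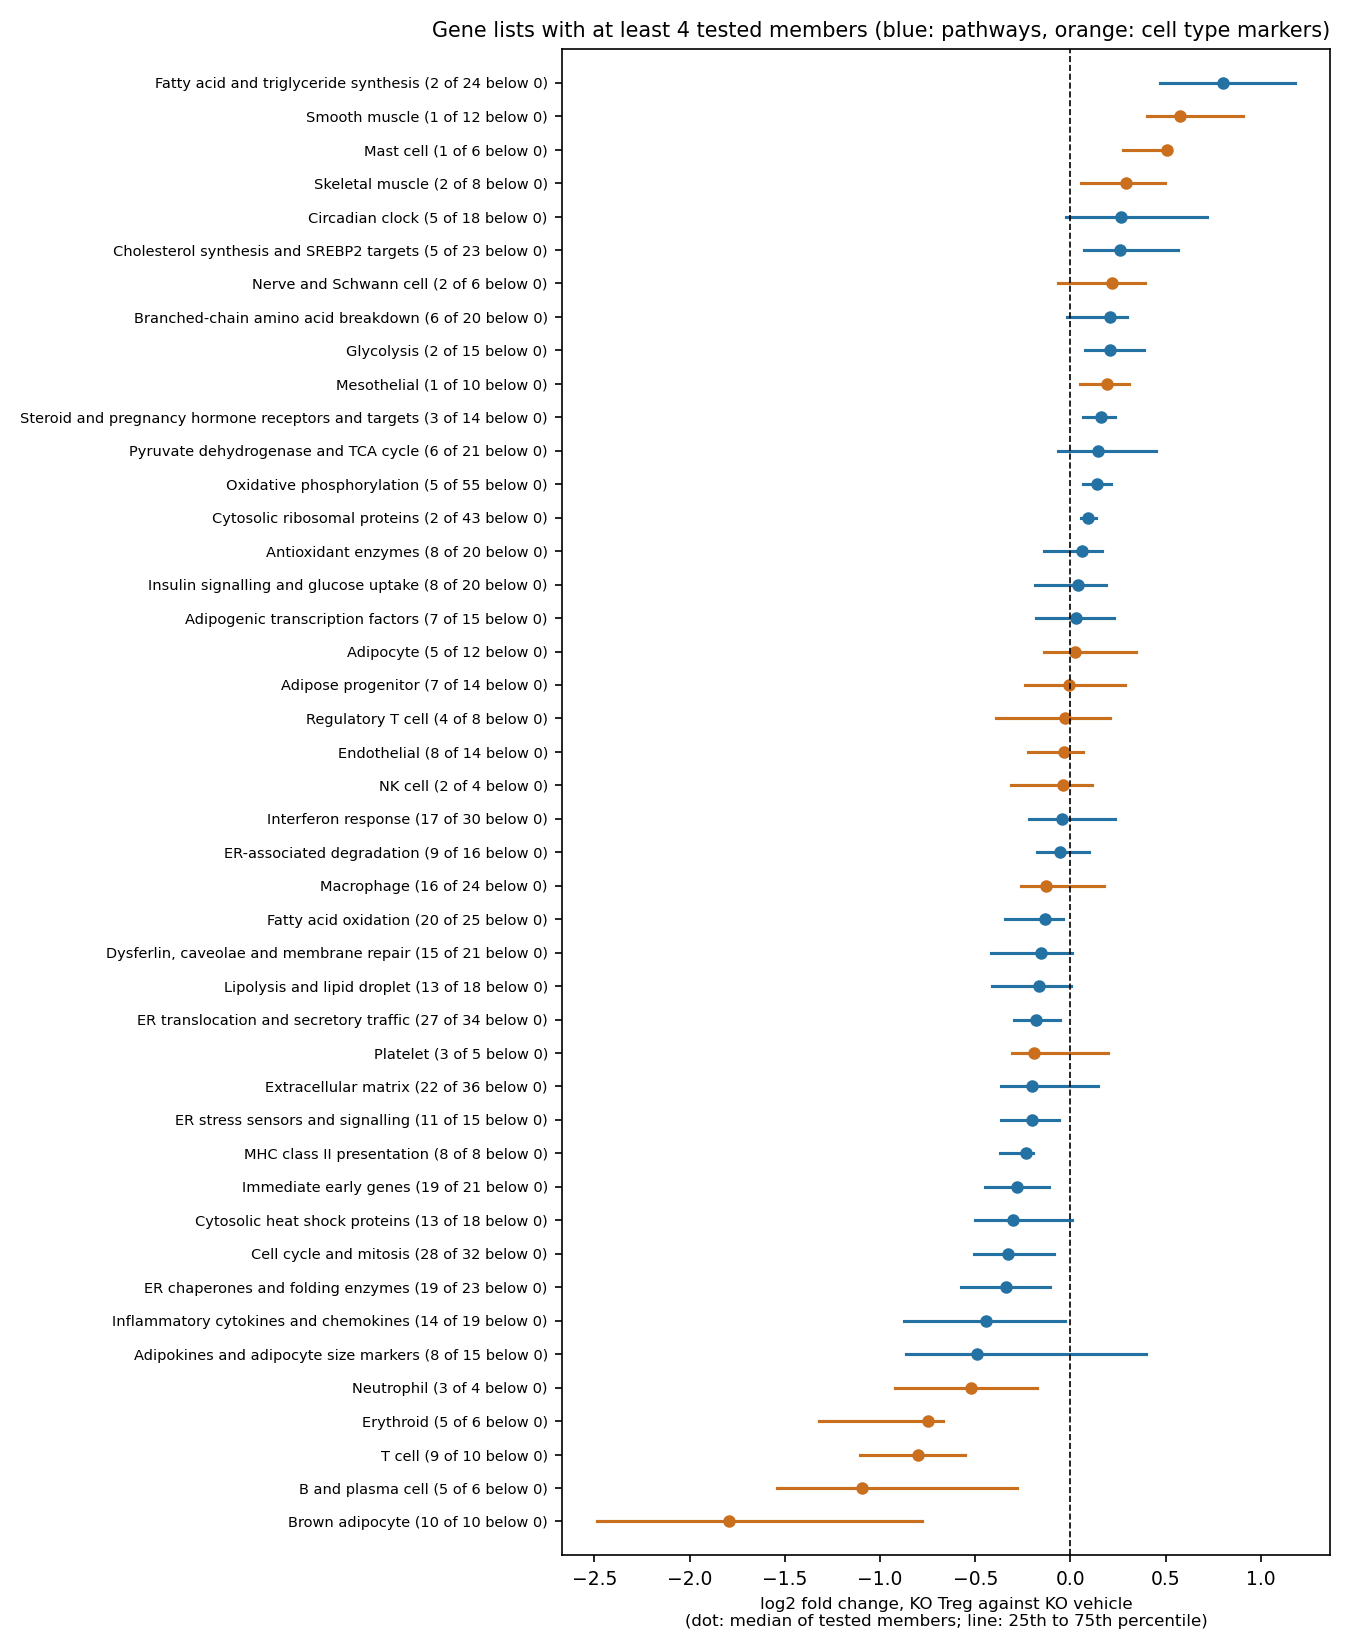
Median log2 fold change of each gene list with at least 4 tested members (dot) and the range from the 25th to the 75th percentile of its members (line), blue for pathways and orange for cell type markers. Fatty acid synthesis lies highest among pathways at +0.80, ER chaperones lie at -0.34, and brown adipocyte markers lie lowest at -1.79.

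Markers of other cell types are given by list, since they can move with the groups. Brown adipocyte genes were below 0 in all 10 tested with a median of -1.79, but the median was +1.38 without KO vehicle 2, KO vehicle 3 and WT vehicle 1. Ucp1, the protein of heat production, was at 0.457, 779, 216 and 0.203 CPM in KO vehicle 1 to 4 and 0.711, 43.2, 1.40 and 0.121 CPM in KO Treg 1 to 4. Without KO vehicle 2, KO vehicle 3 and WT vehicle 1 the log2 fold change of Ucp1 turned from -4.43 to +5.11. These libraries were left out because they were high in Ucp1, while KO Treg 2, far the highest of its group, was kept. Both changes of sign, of the list median and of Ucp1, thus depend on that choice of libraries. Smooth muscle genes were above 0 in 11 of 12 with a median of +0.58, which was +0.05 without KO vehicle 1 and KO Treg 2, +0.20 without KO Treg 2 alone and +0.90 without KO vehicle 4, and their summed level was 789 to 2835 CPM in KO Treg and 811 to 1925 CPM in KO vehicle. Erythroid genes were below 0 in 5 of 6 tested, with list means of 2.28 to 3.23 log2 CPM in KO Treg and 2.61 to 4.13 in KO vehicle. Endothelial and adipocyte markers had medians of -0.03 and +0.02, whose signs changed with the library left out. Mesothelial markers were at +0.19, or -0.03 without KO Treg 3. Summed B and plasma cell markers were at 34.3 to 44.3 CPM in KO Treg and 34.9 to 73.1 CPM in KO vehicle, highest in KO vehicle 2. Summed neutrophil markers were at 69.1 to 89.2 and 71.7 to 142 CPM, mast cell markers at 23.8 to 31.7 and 17.9 to 29.1 CPM, and natural killer cell markers at 14.1 to 17.2 and 5.59 to 23.1 CPM. Their medians were -0.52, +0.51 and -0.04 over 4, 6 and 4 tested genes. Without KO vehicle 1 and KO Treg 2 these medians were -0.91, +0.22 and -0.15. Skeletal muscle and nerve markers had medians of +0.29 and +0.22 over 8 and 6 tested genes, the first turning to -0.35 without KO vehicle 1 and KO Treg 2. Of 15 epithelial markers 1 was tested. The part of these cell types, the placental libraries and the number series in the gene differences above was not tested. Without KO vehicle 1 and KO Treg 2, and in the lower series alone, 0 genes were called, while the log2 fold change of Dysf was -1.07 and -1.19. For Hspa5 it was -0.82, for Cdk1 -1.16, for Sec22b -0.66 and for Ptger3 +1.71 within the lower series.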

How the data were processed

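Total RNA of 12 gonadal fat samples was made into QuantSeq libraries, which read the 3' ends of transcripts, per the labels' protocols. Raw counts of reads in each gene were deposited, 1 table per library. The submitters' processing notes name HTSeq 0.6.1, TopHat2 2.1.1, BWA 0.7.12, SAMtools 1.3.1 and mm10; the sources used here do not give their roles, the annotation or the strand setting. All 12 libraries entered 1 fit of 3 groups, so that WT vehicle helped to estimate the spread, in edgeR 4.0.16 (R 4.3.3): filterByExpr, TMM, the robust quasi-likelihood test with no covariate, and a Benjamini-Hochberg threshold of 0.05. CPM were computed on TMM-scaled totals, and log2 CPM with a prior count of 2. The SE of a log2 fold change is its size over the square root of the F statistic. A count of 3 equals 0.305 to 0.466 CPM in the knockout libraries, which covers counting error only. No source states that the libraries are separate animals, so p-values measure the spread between these samples.

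The 28 pathway lists, 19 marker lists, members and rules were chosen with earlier results of these data known. Genes named are Tnfrsf11a, Foxn1 and Foxp3, called genes, in each direction the 12 of smallest p and 6 of largest change (p under 0.01) without overlap and with at least 5 CPM, and up to 3 genes of smallest p per list; the text names some of these. Foxn1 had 0 counts in all libraries. Every count was a multiple of 3 for Gm715, and of 2 for Tmem173, Smg6, Pip5k1c, Igj and Alas1. Fits were checked on simulated data. Alternatives were other scalings, filters and fits, DESeq2 1.42.0, limma 3.58.1 voom, the number series, and leaving out libraries. Gene positions are from GENCODE M21, promoters from RefSeq GRCm38.p6.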

Additional observations from a re-analysis of the deposited data

Results flagged for a closer look

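In 266 groups of 4 libraries, 21 had 1 library whose distance from the nearest other, as a share of the group's range, exceeded Dixon's critical value for 4 samples, where chance flags about 1 in 20 groups. KO Treg 1 was lowest of its group for Dysf (17.9 CPM, the others 27.4 to 28.8), Anxa2 (512 CPM), Creb3l1 (5.21 CPM), Pnpla2 (2286 CPM) and the mean of the MHC class II list (5.28 log2 CPM). KO Treg 2 was highest for Ucp1 (43.2 CPM, the others up to 1.40) and for the mean of the 2 tested placental genes (5.36 log2 CPM), and lowest for the antioxidant list (7.46 log2 CPM). KO Treg 3 was highest for C1qtnf9 (55.2 CPM) and the adipose progenitor list (4.81 log2 CPM), and KO Treg 4 for the oxidative phosphorylation list (8.56 log2 CPM).

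Within KO vehicle, library 1 was highest for Anxa2 (1624 CPM) and Manf (56.2 CPM, the others up to 35.1). KO vehicle 2 was highest for Hsph1 (70.6 CPM), Odc1 (170.6 CPM) and the heat shock list (6.86 log2 CPM), and lowest for Lep (134 CPM, the others from 293). KO vehicle 3 was highest for Fasn (12524 CPM, the others up to 2025). KO vehicle 4 was highest for Cry1 (13.8 CPM), Arntl (5.38 CPM) and the smooth muscle list (6.48 log2 CPM). What sets these libraries apart was not tested.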

How the results depend on the processing

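The single call, Dysf, was not stable. The count of called genes was 0 with RLE scaling, with a filter of at least 1 CPM in 4 libraries, with the 8 knockout libraries only, with the number series as a covariate, in the lower number series alone, in a fit that was not robust, without KO vehicle 1 and KO Treg 2, and without the 3 libraries high in Ucp1 (KO vehicle 2 and 3, WT vehicle 1). It ranged from 0 to 0 when each of the 12 libraries was left out in turn, and was 68 with DESeq2, which left 480 adjusted p as NA; the cause was not tested. Upper quartile scaling, voom, no filter and a filter of at least 5 CPM gave 1. Dysf kept its direction in all, with log2 fold changes from -1.19 to -0.88 and an edgeR adjusted p of up to 0.438. At an unadjusted p under 0.05 the count ran from 722 without KO Treg 1 to 1332 without KO vehicle 3. The number of genes without overlap kept within 1.5 times its value of 614. Of the values of named genes under alternatives, 2076 kept direction and side of the threshold, 30 crossed it with DESeq2, 20 of Dysf lost it, and 13 reversed. Ucp1 reversed to 5.11 without the 3 libraries high in Ucp1, with KO Treg 2 kept. Tnfrsf11a was at -0.038 with voom and -0.13 without KO vehicle 1 and KO Treg 2, and between -0.13 (without KO Treg 2) and 0.17 over leaving out 1 library. Adipoq was at -0.0033 with the series covariate and between -0.054 (without KO vehicle 2) and 0.16, and Plin1 at 0.0025 without the 3 libraries high in Ucp1 and between -0.15 and 0.029 (without KO vehicle 3). Over leaving out 1 library, Csf1r ran from -0.13 to 0.045 (without KO vehicle 4) and Arntl from -0.54 to 0.13 (without KO vehicle 4). Of list medians under alternatives, 1144 moved by less than the spread between libraries and 31 by more. No paired analysis was possible because the numbers given to replicates are in accession order and do not pair libraries. With 4 libraries a group and 6583263 counts in the shallowest knockout library, a difference in genes of few counts, such as Foxp3, was not detectable.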
